A study of Caenorhabditis elegans with 8 samples.

Results

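The effect of bacterial food on worm transcripts was measured over 2 genotypes at once, as 4 libraries from animals fed an hns deletion derivative of Escherichia coli against 4 libraries from animals fed its parent strain, BW25113. These are all 8 libraries of the series, and the genes compared were those above 0 in every one of them, 16248 of the 41560 in the deposited table. Animals were whole young adult Caenorhabditis elegans kept at 20 °C on agar plates of nematode growth medium. The groups were daf-16 on hns food, wild type N2 on hns food, daf-16 on BW25113 food and wild type N2 on BW25113 food, with 2 libraries each. The daf-16 animals carry mgDf50, a deletion in the daf-16 gene, and both bacterial foods share the BW25113 background. Each library holds RNA of whole animals, so that fewer cells of a type and less RNA per cell cannot be told apart. The series was deposited as a study of how bacteria without hns act on the worm's DAF-16 and of how this differs from insulin-like signalling.

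H-NS, the product of hns, is a DNA-binding protein that holds many bacterial genes silent, so its loss changes what the bacteria make and what they offer as food. C. elegans cannot make heme and takes it from the bacteria it eats, and its intestine imports, stores and passes on heme through the HRG proteins. The intestine also meets bacterial vitamin B12, propionate precursors and amino acids, and it makes the lysosomal proteases, lysozymes and lectins that digest or answer bacteria. DAF-16 is the worm's FOXO transcription factor, which insulin-like signalling keeps out of the nucleus.

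The libraries' FPKM (fragments per kilobase of transcript, scaled to the mapped fragments of the library) summed to between 2128460 and 2508481. Genes with a value above 0 numbered 18137 to 18647 per library, of which 13191 to 14099 reached 1 FPKM. Replicates of a group correlated with Pearson's r of 0.992 to 0.995 across the genes tested, which are not independent of each other. Replicate 1 of wild type on hns food lay farthest out on the first principal component, at 35.8, which held 38.4% of the variance. In each group replicate 1 lay above replicate 2 on this component. The values on hns food were 17.2 and 1.73 in daf-16 and 35.8 and 12.4 in wild type. Those on BW25113 food were -7.52 and -24.3 in daf-16 and -8.25 and -27.1 in wild type. The daf-16 transcript itself stood at 17.7 and 15.8 FPKM in daf-16 and at 75.6 and 69.9 FPKM in wild-type animals on hns food. On BW25113 food it was 19.2 and 18.3 FPKM in daf-16 and 77.1 and 77.4 FPKM in wild type, so that the genotypes separated on both foods. The food effect on it was -0.12 ± 0.06 on the log2 scale (limma adjusted p = 0.269).

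On hns food 6 of 9 genes of heme transport and signalling fell, 4 of 15 tested cysteine cathepsin genes fell, and an arginine kinase gene, a C-type lectin gene and a cystathionine gamma-lyase gene rose the most. Over both genotypes 200 of 16248 genes passed the threshold of a limma adjusted p under 0.05, which is 1.23% of those tested. Of these, 124 (0.763%) were higher and 76 (0.468%) were lower on hns food. The change reached at least 1 on the log2 scale for 41 of the higher and 21 of the lower genes. The median over all genes tested was 0.00, and 50.7% of them lay above 0. An unadjusted limma p under 0.05 was reached by 3365 of the 16248 genes tested. The counts given below for gene lists are to be read beside these totals over all genes. Fold changes on the log2 scale refer to log2(FPKM + 1) and understate the change of genes near 0, whereas folds quoted as such are ratios of mean FPKM. A log2 fold change is given ± its standard error. A mean ± SD over the 4 libraries of a food includes the difference between the genotypes.

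The split between higher and lower genes moved with the scale, to 108 and 103 after quantile normalization, 122 and 142 with equal medians and 133 and 55 on the TPM scale. Equal medians shifted the median gene to -0.12. Same-numbered replicates deviated together across groups, and with the replicate number as a block 747 genes passed, 539 higher and 208 lower. Leaving out 1 library gave 380 and 399 passing genes without daf-16 replicate 1 on BW25113 food and without daf-16 replicate 2 on hns food. It gave 112 without daf-16 replicate 2 on BW25113 food and 94 without daf-16 replicate 1 on hns food. It gave 100 without wild type replicate 1 or 2 on BW25113 food, 104 without wild type replicate 1 on hns food and 124 without wild type replicate 2 on hns food. The genes that passed without any 1 library were 76, or 0.468% of those tested, and 39 of them were higher and 37 lower. A gene described below as passing in 8 of 8 such fits belongs to these 76. Of the other 124 genes, 37 passed only without daf-16 replicate 1 on BW25113 food and without daf-16 replicate 2 on hns food, and 28 of these were higher.

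The genotypes shared the leading changes. In a fit with a mean for each group, 44 genes passed in daf-16 (0.271%) and 271 in wild type (1.67%). The gap between these counts moved with the setting. In daf-16 and in wild type, 38 and 87 passed on the TPM scale and 44 and 107 after quantile normalization. Without a filter on low values 53 and 60 passed, and with the replicate block 75 and 863. Of the 200 genes that passed over both genotypes, 42 also passed in daf-16, 92 in wild type and 42 in both, while 108 passed in neither genotype alone. All 200 had the same sign in both genotypes, against 73.0% of all genes tested. In all 200 the libraries of the 2 foods did not overlap within either genotype, against 2875 genes or 17.7% of those tested. The test over both genotypes favours genes with these 2 properties. No gene passed the test of the difference between the genotypes' food effects (0%), whose lowest limma adjusted p was 0.982, and 666 genes had an unadjusted p under 0.05. Without a filter on low values 31 genes passed this test, and 14 passed when at least 1 FPKM in at least 2 libraries was asked for.

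**Figure D1:**
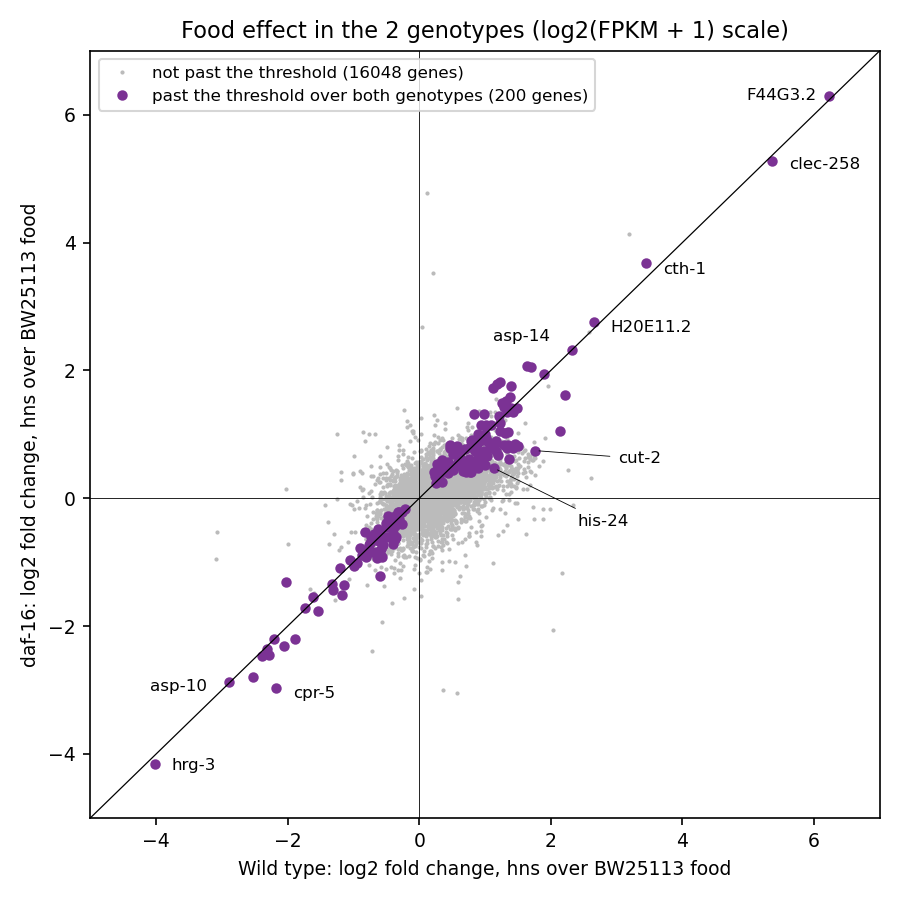
Log2 fold change of each gene on hns over BW25113 food in daf-16 (vertical) and in wild type (horizontal), on the log2(FPKM + 1) scale. Purple points are the 200 genes past the threshold over both genotypes, grey points the other 16048, and the diagonal marks equal change: hrg-3 (-4.16 in daf-16, -4.02 in wild type) and F44G3.2 (6.30 and 6.23) lie near it, while cut-2 (0.75 and 1.76) and his-24 (0.47 and 1.13) lie on the wild-type side.

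Of 9 genes of heme transport and signalling, 6 fell, 0 rose and the median was -2.19, against 0.00 over all genes tested. The 6 fell in each of the 8 fits that left out 1 library. Transcripts of hrg-3, which encodes a secreted heme carrier that takes heme from the intestine to embryos and other tissues, were 48.0 and 40.9 FPKM in daf-16 and 29.8 and 29.1 FPKM in wild-type animals on hns food. On BW25113 food they were 822 and 794 FPKM in daf-16 and 501 and 486 FPKM in wild type. Both genotypes thus held little hrg-3 on hns food and much on BW25113 food, with no overlap. The mean was 17.6-fold lower on hns food (log2 fold change -4.09 ± 0.06, limma adjusted p = 1.09e-08), the largest fall of any gene that passed. The exons of hrg-3 overlap those of F58E6.11 on the opposite strand, and the sources used here do not say whether counting used strand.

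The importers fell by similar amounts in the 2 genotypes. The gene hrg-1 encodes the lysosomal heme transporter of the intestine. Its level was 45.4 and 37.5 FPKM in daf-16 and 39.9 and 41.8 FPKM in wild-type animals on hns food, against 225 and 206 FPKM in daf-16 and 225 and 190.4 FPKM in wild-type animals on BW25113 food. For hrg-4, the importer at the gut-facing membrane, the values were 38.3 and 51.9 FPKM in daf-16 and 35.7 and 44.05 FPKM in wild-type animals on hns food, compared with 205 and 212 FPKM in daf-16 and 181 and 195 FPKM in wild-type animals on BW25113 food. Neither gene overlapped between the foods, and they were 5.14-fold and 4.67-fold lower on hns food (limma adjusted p = 2.38e-06 and 2e-05). The epidermal heme-binding protein gene hrg-2 was rarer, at 1.22 ± 0.349 FPKM on hns food and 9.14 ± 1.90 FPKM on BW25113 food (SD, n = 4 each; limma adjusted p = 0.000551).

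The exporter and the signal of the pathway fell as well. MRP-5 is the transporter that moves heme out of the intestine, and its gene averaged 29.9 ± 1.91 FPKM on hns food and 61.3 ± 2.73 FPKM on BW25113 food (SD, n = 4 each; limma log2 fold change -1.01 ± 0.06, adjusted p = 7.92e-05). For asp-10, which encodes HRG-7, a protein of the aspartic protease family that signals between intestine and neurons, the level was 101 and 112 FPKM in daf-16 and 95.3 and 87.1 FPKM in wild-type animals on hns food. On BW25113 food it was 795 and 782 FPKM in daf-16 and 680.1 and 681 FPKM in wild type. These 8 values formed 2 tight clusters by food, a 7.43-fold difference of the means (limma adjusted p = 2.27e-08). The 3 members that did not pass were hrg-5 at 0.739 ± 0.101 FPKM on hns food and 0.687 ± 0.590 FPKM on BW25113 food, hrg-6 at 7.06 ± 1.25 and 9.34 ± 2.14 FPKM, and R186.1 (hrg-9) at 2.44 ± 0.680 and 2.84 ± 0.930 FPKM (SD, n = 4 each; limma adjusted p = 0.738, 0.281 and 0.62).

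No iron gene passed. Of 9 tested genes of iron storage and metal import, 0 passed, 3 had an unadjusted p under 0.05, 8 lay below 0 and the median was -0.14. The ferritin gene ftn-2 was at 557 and 587 FPKM in daf-16 and 603 and 616 FPKM in wild-type animals on hns food, compared with 714 and 906 FPKM in daf-16 and 739 and 759 FPKM in wild-type animals on BW25113 food. These values did not overlap between the foods, yet ftn-2 missed the threshold (log2 fold change -0.39 ± 0.08, limma adjusted p = 0.0614). It passed with the replicate block (adjusted p = 0.0276), on the TPM scale, with equal medians and without either daf-16 library on BW25113 food. Another member of the list passed without daf-16 replicate 2 on hns food. The inducible ferritin gene ftn-1 was low, with overlapping foods, at 1.16 ± 0.852 FPKM on hns food and 1.65 ± 0.543 FPKM on BW25113 food (SD, n = 4 each; limma adjusted p = 0.332). Copper uptake showed a pair chosen after its values were seen. The copper transporter gene F58G6.9 (chca-1) averaged 80.3 ± 10.8 FPKM on hns food and 128 ± 9.31 FPKM on BW25113 food, and its neighbour F58G6.3 averaged 104 ± 7.84 and 141 ± 7.72 FPKM (SD, n = 4 each; limma adjusted p = 0.00192 and 0.0133). The call of F58G6.9 held in 8 of 8 fits that left out 1 library, and that of F58G6.3 was lost without wild type replicate 2 on BW25113 food.

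**Figure D2:**
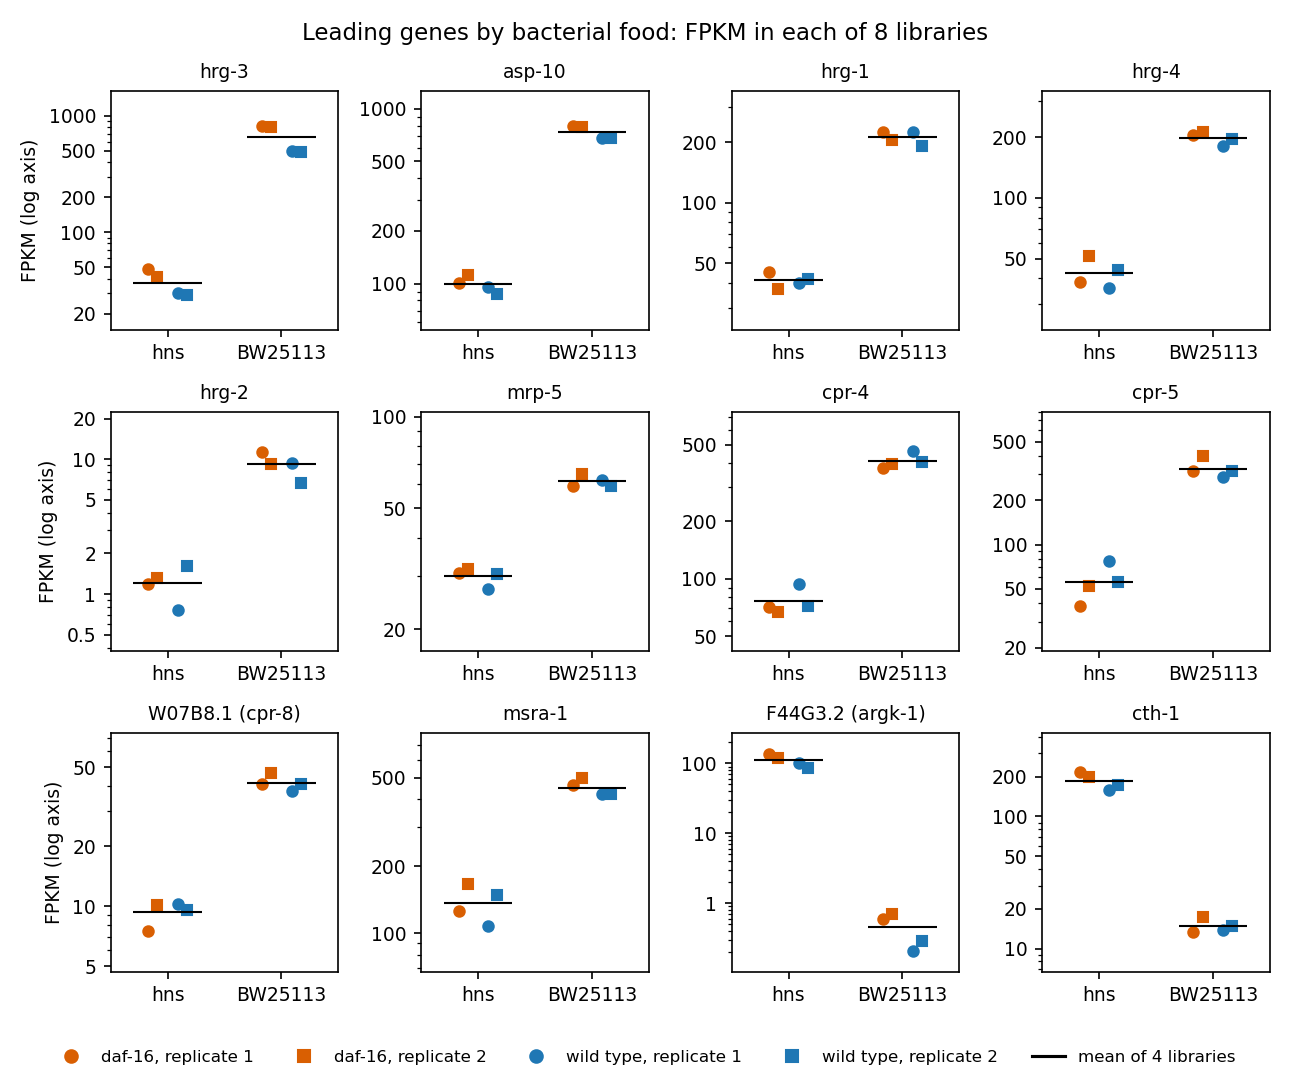
FPKM (log axis) of 12 genes in each of the 8 libraries, hns food on the left and BW25113 food on the right of each panel, with daf-16 in orange and wild type in blue, replicate 1 as circles, replicate 2 as squares, and a bar at the mean of 4 libraries. In every panel the 2 foods do not overlap, and F44G3.2 spans 86.0 to 138 FPKM on hns food against 0.209 to 0.699 FPKM on BW25113 food.

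Of 15 tested cysteine cathepsin genes, which encode proteases of the lysosome and gut, 4 fell, 0 rose, 5 lay above 0 and the median was -0.19, or -0.12 without wild type replicate 1 on hns food. The cathepsin B-like genes cpr-4 and cpr-5 fell the most. The level of cpr-4 was 71.6 and 67.4 FPKM in daf-16 and 93.8 and 71.9 FPKM in wild-type animals on hns food, against 380.3 and 395 FPKM in daf-16 and 467 and 409 FPKM in wild-type animals on BW25113 food. That of cpr-5 was 38.1 and 52.2 FPKM in daf-16 and 77.9 and 55.3 FPKM in wild-type animals on hns food, compared with 314 and 401 FPKM in daf-16 and 286 and 314 FPKM in wild-type animals on BW25113 food. Neither overlapped between foods, and the means were 5.42-fold and 5.88-fold lower on hns food (limma adjusted p = 3.08e-06 and 0.000551). The fall of cpr-5 was -2.96 in daf-16 and -2.17 in wild type, a difference that did not pass (unadjusted p = 0.0292, limma adjusted p = 0.999). W07B8.1 (cpr-8), which lies beside cpr-5 in the reference, averaged 9.38 ± 1.29 FPKM on hns food and 41.6 ± 3.70 FPKM on BW25113 food, and F32H5.1 averaged 42.5 ± 2.58 and 78.8 ± 2.67 FPKM (SD, n = 4 each; limma adjusted p = 7.31e-05 and 0.00019).

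The more abundant cathepsin genes did not pass. The gene cpr-6 averaged 1802 ± 42.9 FPKM on hns food and 2099 ± 217 FPKM on BW25113 food, and cpl-1, the cathepsin L gene, 1535 ± 153 and 1740 ± 60.1 FPKM (SD, n = 4 each; limma adjusted p = 0.15 and 0.2). The values of cpr-1 overlapped between foods, at 99.4 ± 40.2 FPKM on hns food and 168 ± 23.2 FPKM on BW25113 food (limma adjusted p = 0.0936). It passed with equal medians and without wild type replicate 1 on hns food. Also lower were the cathepsin A homologs K10B2.2 (ctsa-4.1) and Y40D12A.2 (ctsa-4.2), which are serine carboxypeptidases. K10B2.2 averaged 22.8 ± 2.29 FPKM on hns food and 60.8 ± 5.18 FPKM on BW25113 food, and Y40D12A.2 averaged 32.6 ± 4.71 and 73.4 ± 6.07 FPKM (SD, n = 4 each; limma adjusted p = 0.000133 and 7.31e-05). All 6 falls named for cathepsins held in 8 of 8 fits that left out 1 library.

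Among 12 aspartic proteases other than asp-10, 2 rose, 1 fell and the median was 0.11, or -0.01 with equal medians. The gene asp-14 was at 152 and 140.2 FPKM in daf-16 and 169 and 171 FPKM in wild-type animals on hns food, against 24.99 and 32.2 FPKM in daf-16 and 32.8 and 33.4 FPKM in wild-type animals on BW25113 food. It thus moved opposite to asp-10, 5.121-fold higher on hns food with no overlap (limma log2 fold change 2.32 ± 0.07, adjusted p = 2.27e-06). The gene asp-6 was 1.23-fold higher and asp-13 1.27-fold lower on hns food (limma adjusted p = 0.0297 and 0.0325). These 2 calls were lost without daf-16 replicate 1 on hns food and without any 1 wild-type library, and that of asp-6 also without daf-16 replicate 2 on BW25113 food. The 21 genes of the vacuolar ATPase, the lysosome's proton pump, had 0 passing, 2 at an unadjusted p under 0.05 and a median of -0.04, or 0.03 after quantile normalization.

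Sulfur metabolism held a gene with a large rise and another with a clear fall. Cystathionine gamma-lyase, the product of cth-1, makes cysteine from cystathionine. Its transcript was at 216 and 198 FPKM in daf-16 and 157 and 174 FPKM in wild-type animals on hns food, against 13.4 and 17.4 FPKM in daf-16 and 13.7 and 14.8 FPKM in wild-type animals on BW25113 food. The foods were far apart, with a 12.58-fold higher mean on hns food (limma log2 fold change 3.56 ± 0.09, adjusted p = 5e-07). The paralog cth-2 was abundant on both foods, at 238 and 249 FPKM on average (limma adjusted p = 0.494). The preceding enzyme's gene cbs-1 averaged 22.1 ± 4.20 FPKM on hns food and 16.47 ± 1.71 FPKM on BW25113 food and passed only with the replicate block (limma adjusted p = 0.0876, 0.0489 with the block). Of 18 tested genes of transsulfuration and hydrogen sulfide handling, cth-1 alone passed, and the median was -0.03, or 0.02 on the TPM scale.

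The gene msra-1 encodes methionine sulfoxide reductase, which repairs oxidized methionine. It was at 126 and 166 FPKM in daf-16 and 108 and 148 FPKM in wild-type animals on hns food, against 462 and 498 FPKM in daf-16 and 420.2 and 423 FPKM in wild-type animals on BW25113 food. The values did not overlap, and the mean was 3.29-fold lower on hns food (limma adjusted p = 0.000211). The list of 17 genes of the methionine cycle and phosphatidylcholine synthesis was fixed with msra-1 in it, although its product is a repair enzyme. In that list msra-1 was the 1 that passed, 14 lay below 0 and the median was -0.10. With the replicate block 4 fell, without daf-16 replicate 1 on BW25113 food 3 fell and without daf-16 replicate 2 on hns food 2 fell. The methionine synthase gene metr-1 averaged 66.1 ± 2.37 FPKM on hns food and 84.4 ± 7.44 FPKM on BW25113 food and missed the threshold (SD, n = 4 each; limma adjusted p = 0.0534, 0.036 with the block). It passed under 9 of the 24 other settings tried, the block among them. The methanethiol oxidase gene Y37A1B.5 (semo-1) was 1.44-fold lower and rhy-1, a regulator of the hypoxia factor HIF-1, 1.33-fold lower on hns food (limma adjusted p = 0.0292 and 0.0355). Both calls held only without daf-16 replicate 1 on BW25113 food and without daf-16 replicate 2 on hns food.

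Propionate breakdown offered a smaller change, in part of its genes. The worm degrades propionate either by a vitamin B12-dependent route or, where B12 is short, by a shunt whose first enzyme is encoded by acdh-1. Of the 5 shunt genes 3 fell and 0 rose, with a median of -0.47. The level of acdh-1 was 1111 and 1165 FPKM in daf-16 and 1132 and 1229.9 FPKM in wild-type animals on hns food, against 1785 and 1677 FPKM in daf-16 and 1810.0 and 1884 FPKM in wild-type animals on BW25113 food. The 4 hns libraries all lay under the 4 BW25113 libraries, a 1.54-fold lower mean (limma log2 fold change -0.63 ± 0.06, adjusted p = 0.00136). The dehydrogenase gene Y38F1A.6 (hphd-1) was 1.48-fold and the hydrolase gene F09F7.4 (hach-1) 1.39-fold lower on hns food (limma adjusted p = 0.00192 and 0.00559). All 3 held in 8 of 8 fits that left out 1 library.

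The remaining shunt genes, ech-6 and alh-8, gave log2 fold changes of -0.29 ± 0.06 and -0.05 ± 0.06 (limma adjusted p = 0.058 and 0.564), and ech-6 passed with the replicate block (adjusted p = 0.0182). The gene ech-6 also passed after quantile normalization, without daf-16 replicate 1 on BW25113 food and without daf-16 replicate 2 on hns food. F54D5.12 (dhgd-1), which encodes the enzyme that clears the 2-hydroxyglutarate formed beside the shunt, averaged 158 ± 15.5 FPKM on hns food and 215 ± 5.77 FPKM on BW25113 food (SD, n = 4 each; limma adjusted p = 0.0213). It did not pass without daf-16 replicate 1 on hns food or without wild type replicate 1 or 2 on BW25113 food. Of 7 genes of the B12-dependent route, mmaa-1 fell (1.201-fold, limma adjusted p = 0.0341) and 0 rose, with a median of -0.14. The call of mmaa-1 held only without daf-16 replicate 1 on BW25113 food and without daf-16 replicate 2 on hns food. The carboxylase subunit genes pcca-1 and pccb-1 gave -0.00 and 0.04 on the log2 scale (limma adjusted p = 0.993 and 0.768). The acyl-CoA dehydrogenase gene acdh-2 was at 14.2 ± 4.93 FPKM on hns food and 45.9 ± 8.60 FPKM on BW25113 food (SD, n = 4 each; limma adjusted p = 0.0171). Its call was lost without either BW25113 library of wild type, without daf-16 replicate 2 on BW25113 food and without daf-16 replicate 1 on hns food.

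A set of 3 genes of pyruvate metabolism, chosen after their values were seen, passed by a narrow margin. The mitochondrial pyruvate carrier gene R07E5.13 (mpc-1), the pyruvate carboxylase gene pyc-1 and the phosphoenolpyruvate carboxykinase gene pck-2 gave -0.33, -0.27 and -0.33 on the log2 scale (limma adjusted p = 0.0492, 0.0435 and 0.0359). Each was lost in 6 or 7 of the 8 fits that left out 1 library. R07E5.13 held only without replicate 2 of either genotype on hns food, pyc-1 only without daf-16 replicate 1 on BW25113 food and without daf-16 replicate 2 on hns food, and pck-2 only without daf-16 replicate 1 on BW25113 food. The gene mxl-3, which encodes a repressor of lysosomal lipase genes in fed worms, averaged 36.1 ± 7.67 FPKM on hns food and 56.4 ± 9.19 FPKM on BW25113 food (SD, n = 4 each; limma adjusted p = 0.00366). Of 14 tested lysosomal and fat-droplet lipase genes 2 rose and 0 fell, 13 lay above 0 and the median was 0.43, while with the block 4 rose.

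The lipase gene lipl-2 was at 11.16 and 9.53 FPKM in daf-16 and 22.6 and 14.6 FPKM in wild-type animals on hns food, against 4.12 and 3.23 FPKM in daf-16 and 9.05 and 5.90 FPKM in wild-type animals on BW25113 food. Every hns library exceeded every BW25113 library, and the mean was 2.60-fold higher on hns food (limma adjusted p = 0.0156). Without daf-16 replicate 1 on hns food or without daf-16 replicate 2 on BW25113 food lipl-2 no longer passed, and 0 lipases did. The gene lipl-5 was 1.31-fold higher (limma adjusted p = 0.0366) and passed in 1 such fit, without wild type replicate 1 on BW25113 food. The lipase count was 3 without daf-16 replicate 2 on hns food and 2 without wild type replicate 1 on BW25113 food. It was 1 without daf-16 replicate 1 or wild type replicate 2 on BW25113 food and without either wild-type library on hns food. Lipid-binding protein genes split, lbp-3 being 1.75-fold lower and lbp-5 and lbp-7 1.22-fold and 1.41-fold higher on hns food (limma adjusted p = 0.000749, 0.0257 and 0.026). The call of lbp-3 held in 8 of 8 fits that left out 1 library. Those of lbp-5 and lbp-7 held without daf-16 replicate 1 on BW25113 food and without daf-16 replicate 2 on hns food, and in 1 more fit each, without wild type replicate 1 on BW25113 food for lbp-5 and without wild type replicate 2 on hns food for lbp-7. The delta-9 desaturase gene fat-7 gave 0.50 ± 0.11 and missed the threshold (limma adjusted p = 0.0789). It passed in a fit with a mean for each group and without wild type replicate 1 on hns food. Of 19 desaturase and elongase genes 0 passed and 5 had an unadjusted p under 0.05.

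The largest rises, those of F44G3.2 and clec-258, were in genes barely detected on BW25113 food. F44G3.2 (argk-1) encodes an arginine kinase, an enzyme that stores high-energy phosphate on arginine. It was at 138 and 120.1 FPKM in daf-16 and 100.3 and 86.0 FPKM in wild-type animals on hns food, against 0.597 and 0.699 FPKM in daf-16 and 0.209 and 0.289 FPKM in wild-type animals on BW25113 food. The separation was the widest of the genes that passed, a 248-fold ratio of means (limma log2 fold change 6.27 ± 0.09, adjusted p = 1.09e-08). None of the other 4 arginine kinase genes passed, F46H5.3 averaging 759 and 810 FPKM and ZC434.8 389 and 431 FPKM on hns and BW25113 food (limma adjusted p = 0.636 and 0.286), with log2 fold changes of W10C8.5 and F32B5.1 of -0.04 and -0.03 (adjusted p = 0.815 and 0.886). The C-type lectin gene clec-258 was at 50.1 and 53.9 FPKM in daf-16 and 56.5 and 40.5 FPKM in wild-type animals on hns food, against 0.504 and 0.235 FPKM in daf-16 and 0.250 and 0.122 FPKM in wild-type animals on BW25113 food. No hns value of clec-258 came near a BW25113 value, and the limma log2 fold change was 5.32 ± 0.13 (adjusted p = 4.28e-07).

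The genes pud-3 and pud-4 belong to a nematode family whose first members were named for their abundance in worms with reduced insulin receptor function. For pud-3 the level was 832 and 818 FPKM in daf-16 and 1759 and 1493 FPKM in wild-type animals on hns food, against 256 and 239 FPKM in daf-16 and 621 and 895 FPKM in wild-type animals on BW25113 food. The foods separated within each genotype, although wild type on BW25113 food reached into the range of daf-16 on hns food. The mean was 2.44-fold higher on hns food for pud-3 and 2.57-fold for pud-4 (limma adjusted p = 0.00418 and 0.00559). The rise of pud-3 was 1.73 in daf-16 and 1.12 in wild type, and the difference did not pass (unadjusted p = 0.0337, limma adjusted p = 0.999). A relative of low level, pud-1.1, averaged 3.43 ± 0.801 FPKM on hns food and 1.36 ± 0.341 FPKM on BW25113 food (SD, n = 4 each; limma adjusted p = 0.026) and was lost without daf-16 replicate 2 or either wild-type library on BW25113 food and without wild type replicate 2 on hns food.

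Genes that worms switch on during bacterial infection rose in part. Of 27 tested infection-response genes 6 rose, 0 fell, 24 lay above 0 and the median was 0.49, while with the replicate block 13 rose. The count was 8 without daf-16 replicate 1 on BW25113 food, 3 without either BW25113 library of wild type and 3 without wild type replicate 1 on hns food. It was 4 without wild type replicate 2 or either daf-16 library on hns food, and 6 without daf-16 replicate 2 on BW25113 food. F35E12.5 (irg-5), a CUB-like gene downstream of the p38 kinase PMK-1, was at 255 and 296 FPKM in daf-16 and 105 and 107 FPKM in wild-type animals on hns food, against 116 and 90.5 FPKM in daf-16 and 35.3 and 44.4 FPKM in wild-type animals on BW25113 food. Its food effect was nearly equal in the genotypes, 1.42 in daf-16 and 1.40 in wild type, on unequal levels (limma adjusted p over both = 0.000306). T24B8.5 (sysm-1), a common reporter gene for PMK-1, was at 1432 and 979 FPKM in daf-16 and 465 and 401 FPKM in wild-type animals on hns food, against 624 and 269.9 FPKM in daf-16 and 165 and 179.7 FPKM in wild-type animals on BW25113 food. The ranges of the foods overlapped across genotypes but not within one. T24B8.5 (limma adjusted p = 0.035) passed in 3 of 8 fits that left out 1 library, those without either daf-16 library on BW25113 food or without daf-16 replicate 2 on hns food.

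A pair of further members passed in every such fit. C32H11.1 (irg-6) was low on hns food, at 2.45 ± 0.852 FPKM, and lower still on BW25113 food, at 0.217 ± 0.143 FPKM, while F55G11.8 averaged 23.3 ± 2.37 and 11.3 ± 1.504 FPKM (SD, n = 4 each; limma adjusted p = 0.00869 and 0.000551). The genes irg-3 and hpo-6 were 2.07-fold and 1.58-fold higher on hns food (limma adjusted p = 0.0359 and 0.0344). The call of irg-3 held only without daf-16 replicate 2 on BW25113 food and without daf-16 replicate 1 on hns food, and that of hpo-6 only without either daf-16 library on BW25113 food. The member dod-24, which did not pass, was at 69.4 ± 10.5 FPKM on hns food and 66.6 ± 5.20 FPKM on BW25113 food (limma adjusted p = 0.768). None of 68 tested antimicrobial peptide genes passed (0 of 68, 22 at an unadjusted p under 0.05, median 0.15), and 5 rose with the replicate block.

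Of 13 tested lysozyme genes 1 rose, 1 fell and the median was -0.04. The gene lys-7, often used as a DAF-16 target, was at 56.0 and 66.3 FPKM in daf-16 and 178 and 181 FPKM in wild-type animals on hns food, against 33.0 and 39.2 FPKM in daf-16 and 69.8 and 90.1 FPKM in wild-type animals on BW25113 food. Food and genotype both separated its libraries, so that daf-16 on hns food lay below wild type on BW25113 food. The food effect of 0.75 in daf-16 and 1.17 in wild type gave 0.96 ± 0.12 over both (limma adjusted p = 0.00905), and the difference did not pass (unadjusted p = 0.072). The gene lys-4 was at 149.8 and 129.7 FPKM in daf-16 and 192 and 130.0 FPKM in wild-type animals on hns food, against 321 and 266 FPKM in daf-16 and 338 and 297 FPKM in wild-type animals on BW25113 food. Its genotypes overlapped on each food and its foods did not overlap, with a 2.03-fold lower mean on hns food (limma adjusted p = 0.00734).

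Of 146 tested C-type lectin genes 11 rose and 2 fell, with a median of 0.05, or -0.03 after quantile normalization and -0.07 with equal medians. With the replicate block 17 rose and 4 fell. Leaving out 1 library gave between 3 and 11 that rose, 3 without replicate 1 of either genotype on hns food, 4 and 5 without replicate 2 on BW25113 food of daf-16 and of wild type, and 6 and 7 without wild type replicate 1 on BW25113 food and replicate 2 on hns food. Besides clec-258, the lectin genes clec-85 and clec-50 rose in 8 of 8 such fits. The level of clec-85 was 52.7 ± 10.4 FPKM on hns food and 26.1 ± 7.56 FPKM on BW25113 food, and that of clec-50 was 388 ± 19.4 and 240.4 ± 32.4 FPKM (SD, n = 4 each; limma adjusted p = 0.007 and 0.006). The exons of clec-85 overlap those of Y54G2A.40 on the same strand, so that reads could have been split between them. The lectin gene clec-47 went the other way, at 3.73 ± 1.05 FPKM on hns food and 23.3 ± 4.65 FPKM on BW25113 food (SD, n = 4 each; limma adjusted p = 0.00108).

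**Figure D3:**
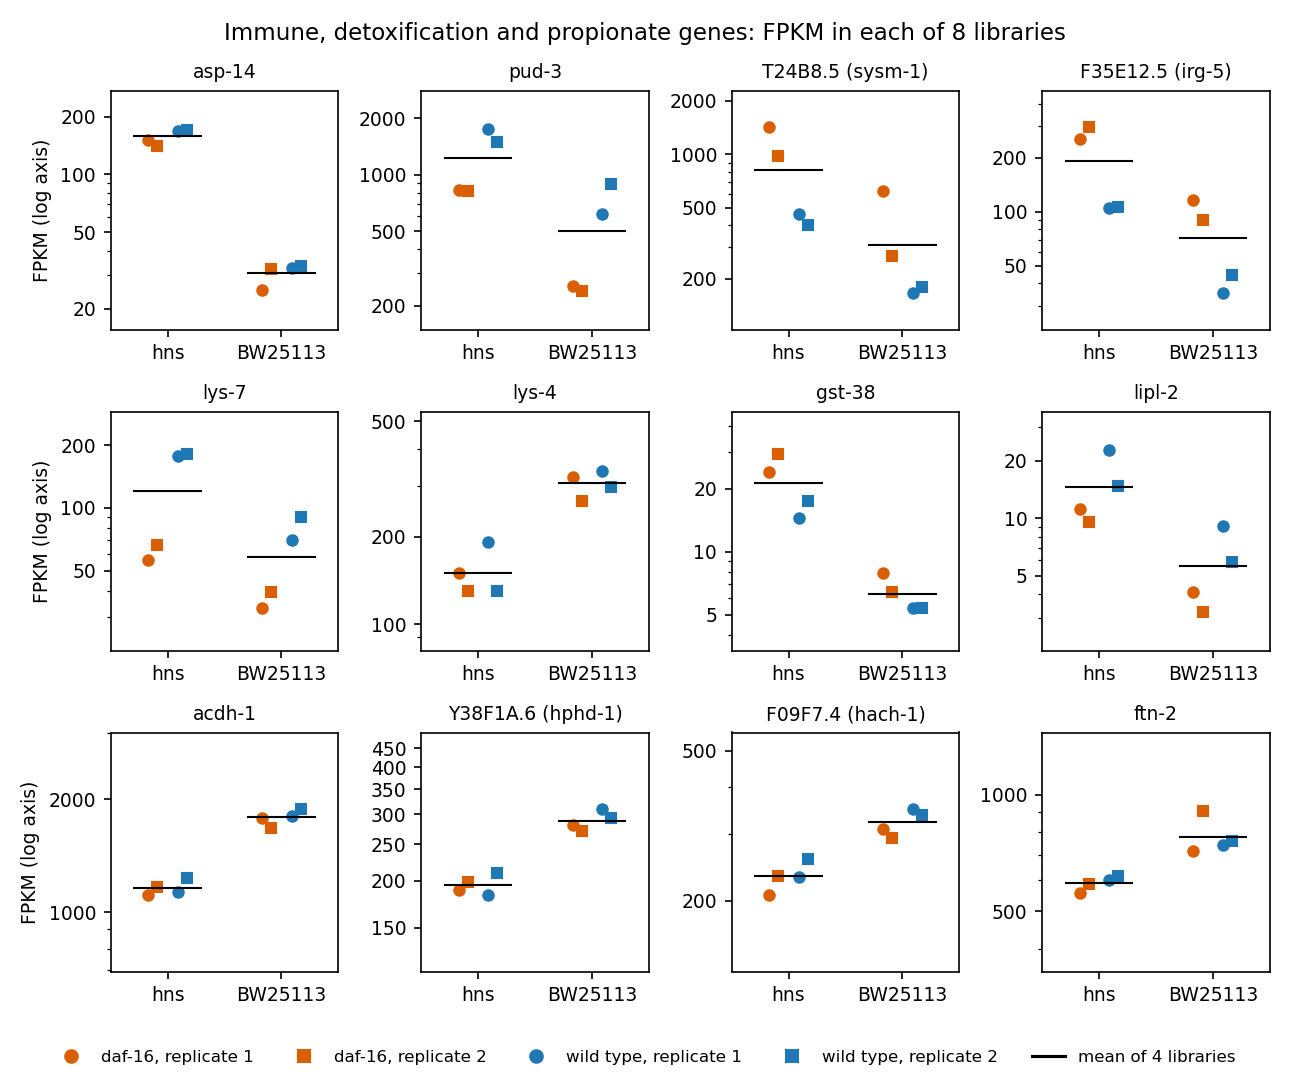
FPKM (log axis) of 12 genes of infection response, detoxification, lipid and propionate breakdown and iron storage in each of the 8 libraries, drawn as in the plot of leading genes, with bars at the mean of 4 libraries. The points of pud-3, lys-7, F35E12.5 and T24B8.5 lie apart by genotype as well as by food, whereas those of acdh-1, lys-4 and asp-14 fall into 2 ranges by food.

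Detoxification enzymes did not move as a block. Of 48 tested glutathione S-transferase genes 4 rose and 3 fell, of 69 cytochrome P450 genes 3 rose and 1 fell, and of 64 UDP-glucuronosyltransferase genes 3 rose and 3 fell. Their medians were 0.11, 0.15 and 0.12, which became -0.01, 0.03 and 0.00 with equal medians. With the replicate block 6 UDP-glucuronosyltransferase genes rose and 4 fell, and without daf-16 replicate 1 on hns food 1 rose and 0 fell. The omega-class transferase gene gsto-1 was at 10.3 and 9.96 FPKM in daf-16 and 14.7 and 11.92 FPKM in wild-type animals on hns food, against 71.6 and 82.1 FPKM in daf-16 and 77.9 and 84.7 FPKM in wild-type animals on BW25113 food. It was the transferase with the largest fall, 6.74-fold and without overlap (limma adjusted p = 3.08e-06). The exons of gsto-1 overlap those of kle-2 on the opposite strand.

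In the other direction gst-38 averaged 21.3 ± 6.61 FPKM on hns food and 6.30 ± 1.203 FPKM on BW25113 food, and gst-20 averaged 67.9 ± 11.04 and 32.2 ± 1.76 FPKM (SD, n = 4 each; limma adjusted p = 0.00064 and 0.00317). The oxidase genes cyp-37B1 and cyp-35B1 were 4.50-fold and 4.26-fold higher on hns food at levels of 3.56 ± 0.772 and 2.64 ± 1.14 FPKM there, against 0.791 ± 0.236 and 0.620 ± 0.344 FPKM on BW25113 food (SD, n = 4 each; limma adjusted p = 0.00136 and 0.00469). Cytochromes P450 are heme enzymes. A common reporter of the oxidative stress factor SKN-1, gst-4, was at 68.1 ± 7.66 FPKM on hns food and 79.1 ± 7.30 FPKM on BW25113 food and did not pass (limma adjusted p = 0.156).

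Among 23 tested genes of superoxide and peroxide defence 2 rose and 1, msra-1, fell, with a median of -0.07. The peroxisomal catalase gene ctl-2 was at 36.9 ± 3.16 FPKM on hns food and 20.5 ± 1.46 FPKM on BW25113 food (SD, n = 4 each; limma adjusted p = 0.00179). Its exons overlap on the opposite strand with those of Y54G11A.7, which fell to 16.8 ± 1.89 FPKM on hns food, against 54.8 ± 2.38 FPKM on BW25113 food (limma adjusted p = 2.55e-05). The superoxide dismutase gene sod-5 stood at 0.781 ± 0.184 FPKM on hns food and 0.283 ± 0.0623 FPKM on BW25113 food (limma adjusted p = 0.0422) and passed in 0 of 8 fits that left out 1 library. The chaperone genes hsp-6, hsp-60 and hsp-4, used as reporters of mitochondrial and endoplasmic reticulum stress, gave -0.16, -0.05 and -0.06 on the log2 scale (limma adjusted p = 0.123, 0.645 and 0.573). Of 17 cytosolic heat shock genes 0 passed and 5 had an unadjusted p under 0.05.

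Because the series concerns DAF-16, genes known to depend on it were read over both genotypes. Of 29 tested DAF-16-activated genes 3 rose, 0 fell and the median was 0.12, or -0.00 with equal medians. The 3 were lys-7, ctl-2 and cyp-35B1, and all rose in 8 of 8 fits that left out 1 library and lay higher on hns food in daf-16 animals too. Other readouts did not pass. The superoxide dismutase gene sod-3 was at 2.77 and 2.02 FPKM in daf-16 and 3.80 and 3.80 FPKM in wild-type animals on hns food, against 2.06 and 1.51 FPKM in daf-16 and 3.56 and 4.41 FPKM in wild-type animals on BW25113 food. The genotypes did not overlap in it and the foods did (log2 fold change 0.12 ± 0.14, limma adjusted p = 0.613). The metallothionein gene mtl-1 was at 10.2 and 4.20 FPKM in daf-16 and 120.4 and 31.3 FPKM in wild-type animals on hns food, compared with 8.54 and 4.15 FPKM in daf-16 and 44.1 and 30.6 FPKM in wild-type animals on BW25113 food. A single library, wild type replicate 1 on hns food, stood out, and the food effect of 0.43 ± 0.44 did not pass (limma adjusted p = 0.575).

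The small heat shock gene hsp-16.2 had a food effect of 0.67 ± 0.16 and dod-3 one of 0.29 ± 0.26 (limma adjusted p = 0.0858 and 0.504). Of 11 DAF-16-repressed genes 0 passed and 3 had an unadjusted p under 0.05, with a median of 0.05, or -0.07 with equal medians, and 2 rose with the replicate block. The 20 genes of insulin-like signalling had 0 passing, 5 at an unadjusted p under 0.05 and a median of 0.01, or -0.02 after quantile normalization, with 10 above and 10 below 0.

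**Figure D4:**
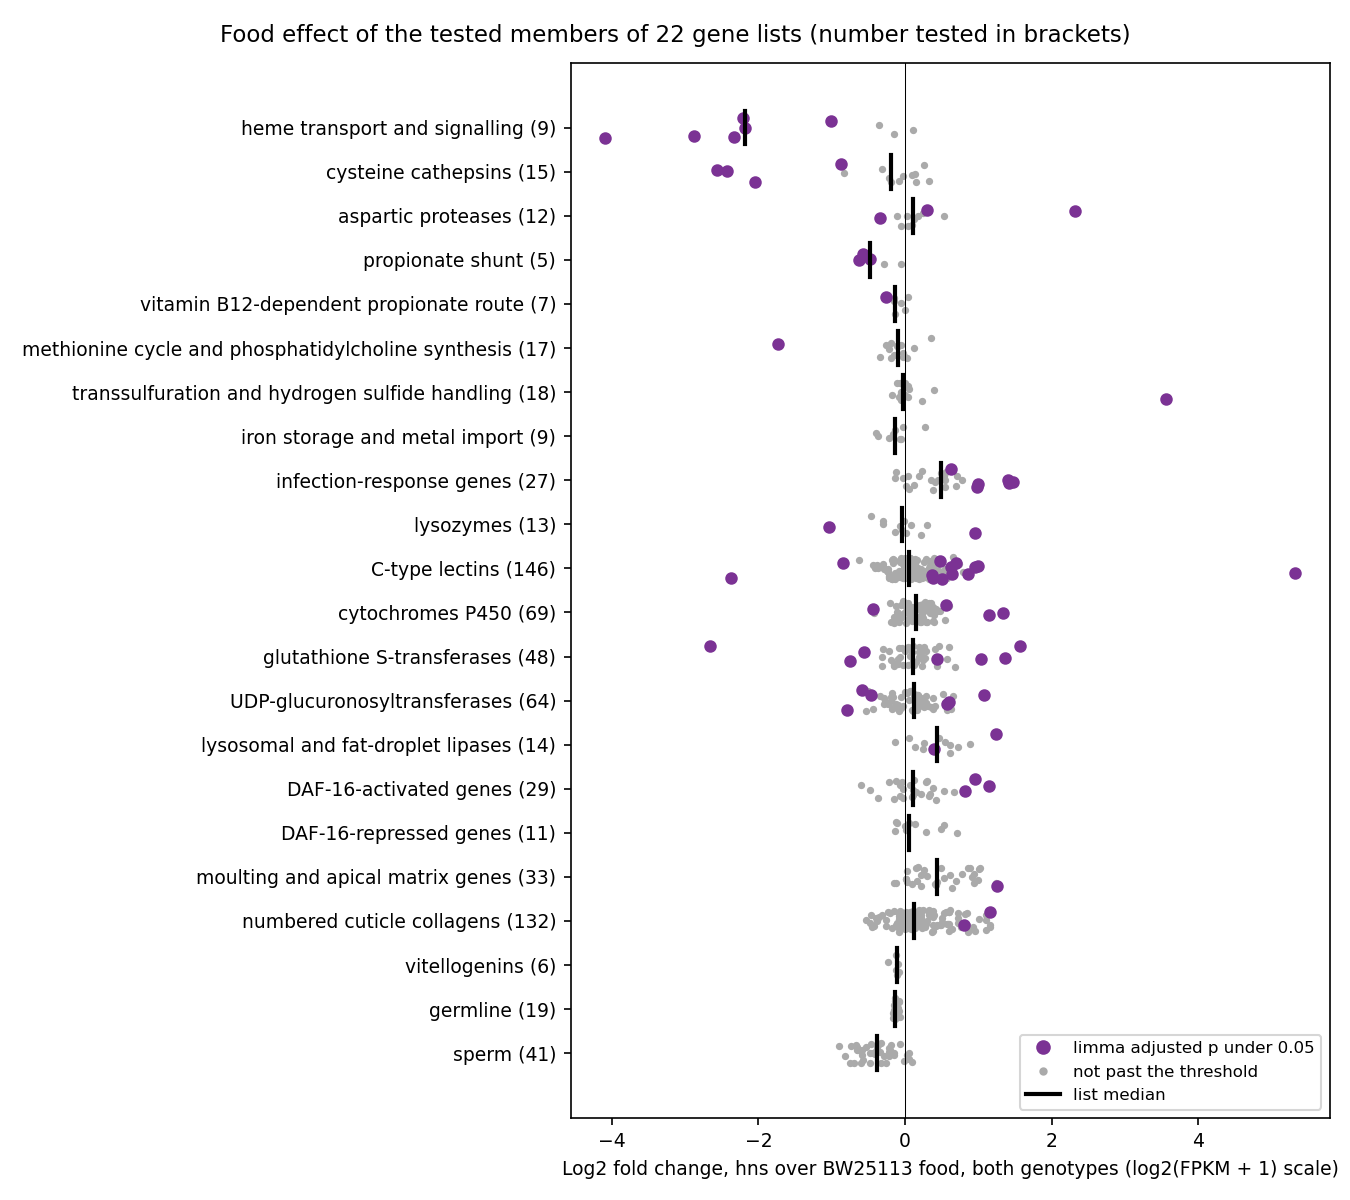
Log2 fold change on hns over BW25113 food over both genotypes, for each tested member of 22 gene lists (number tested in brackets), on the log2(FPKM + 1) scale. Purple points passed the limma threshold, grey points did not, black bars are medians: heme transport and signalling lies at -2.19, the propionate shunt at -0.47, infection-response genes at 0.49 and moulting genes at 0.44.

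Few cuticle genes passed. Of 33 tested moulting and apical matrix genes 31 lay above 0 with a median of 0.44, which was 0.25 in daf-16 and 0.64 in wild type, but cut-2 was the 1 that rose. With the replicate block 7 rose. Without daf-16 replicate 1 on BW25113 food 8 rose and without daf-16 replicate 2 on hns food 9 rose, and without any 1 of the other 6 libraries 0 did. The cuticlin gene cut-2 was at 40.2 and 30.5 FPKM in daf-16 and 47.1 and 57.6 FPKM in wild-type animals on hns food, against 22.8 and 18.4 FPKM in daf-16 and 14.98 and 14.4 FPKM in wild-type animals on BW25113 food. The foods did not overlap, and the food effect was 0.75 in daf-16 and 1.76 in wild type (1.25 ± 0.21 over both, limma adjusted p = 0.0332). The difference between genotypes had an unadjusted p of 0.00333 and a limma adjusted p of 0.982.

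The linker histone gene his-24 was at 201 and 200.3 FPKM in daf-16 and 144 and 169 FPKM in wild-type animals on hns food, against 156 and 134 FPKM in daf-16 and 70.9 and 70.2 FPKM in wild-type animals on BW25113 food. The foods separated within each genotype, although daf-16 on BW25113 food reached into the range of wild type on hns food. Its food effect was 0.47 in daf-16 and 1.13 in wild type (0.80 ± 0.13 over both, limma adjusted p = 0.032; adjusted p = 0.982 for the difference). Of 132 numbered collagen genes, col-74 and col-115 rose (limma adjusted p = 0.0304 and 0.0217), 0 fell and the median was 0.13. Over all genes tested 0.763% were higher. With the block 16 rose, and without daf-16 replicate 1 on BW25113 food or daf-16 replicate 2 on hns food 9 and 12 rose, whereas without any 1 other library 0 did. The exons of col-74 overlap those of ZK1248.13 on the opposite strand. Of 20 body-shape collagen genes 0 rose, 7 had an unadjusted p under 0.05 and 6 rose with the block, and their median was 0.24 over both genotypes, -0.11 in daf-16 and 0.77 in wild type. That median of 0.24 became 0.04 without wild type replicate 1 on hns food, the library farthest out on the first principal component. It became 0.38 without daf-16 replicate 2 on hns food and 0.36 without wild type replicate 2 on hns food. After quantile normalization it was 0.08, and with equal medians 0.12.

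Of 90 tested genes in a list of homeobox and bHLH transcription factors 1, hlh-1, rose and 0 fell. Over all genes tested 0.763% were higher. In the list 60 genes lay above 0 and 30 below, and 29 had an unadjusted p under 0.05. Their median was 0.14, or 0.02 after quantile normalization or with equal medians and 0.08 without wild type replicate 1 on hns food. With the replicate block 5 rose. The muscle factor gene hlh-1 and the transcription factor genes lin-32, mls-2, ref-2 and alr-1 were 1.72-fold to 2.22-fold higher on hns food (limma adjusted p = 0.014 to 0.0332). The last 4 were chosen after their values were seen and are not in that list as fixed. Of them lin-32 is a bHLH gene and mls-2 and alr-1 are homeobox genes, so that the list does not cover these families in full. The calls of cut-2, his-24, col-74, col-115, hlh-1, lin-32 and mls-2 held only without daf-16 replicate 1 on BW25113 food and without daf-16 replicate 2 on hns food, that of alr-1 only without the second of these, and that of ref-2 was lost without either wild-type library on BW25113 food.

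Among markers of cell and tissue content 1 gene, the muscle marker hlh-1, passed. The part of these markers in the changes above was not tested. All 19 germline markers lay below 0 with a median of -0.13, and their summed level ran from 4284 to 4866 FPKM on hns food and from 4359 to 5213 FPKM on BW25113 food. All 15 oocyte and eggshell markers (median -0.11) and all 6 vitellogenin genes (median -0.11), which encode yolk protein made in the intestine, lay below 0 too. After quantile normalization the medians of the germline, oocyte and vitellogenin lists were -0.09, -0.04 and -0.05. With equal medians they were -0.25, -0.23 and -0.23. Vitellogenins summed to 8599.9 to 10184 FPKM on hns food and 10009 to 10886 FPKM on BW25113 food. Of 41 tested sperm genes 37 lay below 0, with a median of -0.38, or -0.74 in daf-16 and -0.15 in wild type, and between -0.59 and -0.20 when 1 library was left out, with sums of 136 to 220 FPKM on hns food and 156 to 381 FPKM on BW25113 food. Many sperm genes are near-identical copies whose reads cannot be assigned with certainty. None of the members of these 4 lists passed singly (0 of 81 by limma, 16 of them at an unadjusted p under 0.05), and 1 germline gene and 1 vitellogenin gene fell with the replicate block. Of 19 tested markers of the zygotic embryo 13 lay above 0, with a median of 0.18, which was 0.02 in daf-16 and 0.36 in wild type, and sums of 421 to 487 FPKM on hns food and 442 to 472 FPKM on BW25113 food. None passed (0 of 19 by limma, 6 at an unadjusted p under 0.05), and 2 rose with the replicate block. Their median was 0.03 without wild type replicate 1 on BW25113 food or wild type replicate 2 on hns food, 0.09 without daf-16 replicate 2 on hns food and -0.01 after quantile normalization.

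Medians of 4 of the 5 somatic marker lists lay above 0. Of 14 neuron markers 12 lay above 0 (median 0.22), of 12 hypodermis markers 9 (median 0.22) and of 7 pharynx markers 7 (median 0.37). None of these 3 lists had a member that passed, and 1, 5 and 1 members had an unadjusted p under 0.05. With the replicate block 3 neuron markers and 1 hypodermis marker rose. Of 12 muscle markers 10 lay above 0 (median 0.12), and hlh-1 passed. These medians moved with the scale and with single libraries. With equal medians they were 0.10 for neurons, 0.10 for hypodermis, 0.25 for pharynx and 0.01 for muscle. Without wild type replicate 1 on hns food they were 0.11, 0.28, 0.18 and 0.08 in that order. Over the 8 fits that left out 1 library they ran from 0.11 to 0.32, from 0.15 to 0.34, from 0.18 to 0.50 and from 0.05 to 0.22. Intestine markers, of which 4 of 9 lay above 0, had a median of -0.08, 0 passing and 3 at an unadjusted p under 0.05, and their sum was 10015 to 11031 FPKM on hns food and 10643 to 11155 FPKM on BW25113 food. Of the listed markers 3 of 50 sperm genes were at 0 in every library, and no marker of the other tissue lists was, so that transcripts of each tissue were present in these whole animals. The 83 ribosomal protein genes had a median of -0.03, or 0.01 after quantile normalization, and the 70 respiratory chain genes one of -0.06. Like the germline markers, most of these genes lay below 0, 67 of the ribosomal and 65 of the respiratory chain genes. In these lists 0 passed, and 1 and 2 genes had an unadjusted p under 0.05.

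Several of the 200 genes are neighbours. By gene order in the WBcel235 reference, 13062 pairs of adjacent coding genes were both tested, and in 14 pairs (0.107%) both passed, 12 of them in the same direction. On chromosome V, cth-1 and F44G3.2, the 2 enzyme genes with the largest rises, are adjacent on the same strand. The falling genes cpr-5 and W07B8.1 and the rising genes pud-3 and pud-4 are divergent pairs on the same chromosome. On chromosome IV the rising genes C17H12.6, H20E11.3 and H20E11.2 are consecutive. H20E11.2 was at 13.2 and 9.95 FPKM in daf-16 and 12.4 and 7.15 FPKM in wild-type animals on hns food, against 0.703 and 1.00 FPKM in daf-16 and 0.733 and 0.596 FPKM in wild-type animals on BW25113 food (limma adjusted p = 0.000191). Adjacent genes of low level, such as gst-17 and gst-18 on chromosome II, share up to 309 nt of exon, and 43 of the 200 genes share exon bases with another coding gene, so that reads at such places could have been counted for either. The genes acdh-2 and Y40D12A.2 share up to 87 and 34 nt with another coding gene on the same strand. The share of overlapping genes among all genes tested was not counted.

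The genes that depended least on how the values were treated were 18 of the 200, 6 higher and 12 lower on hns food, which passed in the same direction under all 24 other settings tried. Among them were hrg-3, hrg-1, cpr-4, gsto-1, F44G3.2, clec-258, cth-1 and asp-14. Settings that used the libraries of 1 genotype only are included in this count. The gene asp-10 was tested under 23 of the settings and passed in all 23.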

How the data were processed

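Per the labels' protocols, whole-worm RNA was turned into libraries with a SENSE mRNA kit from Lexogen. The deposited values are FPKM per gene, and the submitters' processing notes name TopHat2 2.0.11, Cufflinks 2.2.1 and build ce10. No source used here names the annotation or says whether strand was used. The authors' table has 1 column per library and 0 columns of other samples. Read totals were not used here. Steps in the low FPKM values implied 20500000 to 22400000 fragments per library, but only 51.1% to 53.9% of these values came within 0.15 of whole numbers (30% if spread evenly), so no count test was run.

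Of 41560 genes, 20764 were at 0 in every library and 4548 in some, and the other 16248 were fitted as log2(FPKM + 1) with limma 3.58.1 in R 4.3.3, with a mean-variance trend, genotype and food (5 residual degrees of freedom). A fit with 4 group means gave the effects within each genotype and their difference. Benjamini-Hochberg adjustment ran over all genes tested, with a threshold of 0.05. The script was tested on simulated data. Names were matched to WBcel235 for 15925 genes (98.0%). Its coordinates are not printed because the build differs.

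Same-numbered replicates deviated together in all 6 pairs of groups (r of 0.208 to 0.402 across genes). The numbers may therefore pair the libraries, a reading from these data and not from a label. The main fit held no term for the replicate number and so left such a pairing out. It gave 200 passing genes, against 747 with the number as a block. Where a gene is said to miss the threshold without naming a setting, the fit without the block is meant. The labels do not say that the replicates came from separate cultures, so the p-values measure a spread between libraries that may be technical.

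The comparison, the gene lists and the tests were chosen with earlier results of these data known. Genes were named if they were among the 15 largest changes in each direction with at least 5 FPKM in the higher food and no overlap between foods, or among the 4 largest passing changes of a list. They were also named if they were among the 8 largest in each direction that passed in neither genotype alone with at least 20 FPKM in the higher food, or in a fixed set of readouts. The interaction would have named 5. Of the genes described, these were chosen after their values were seen: mrp-5, hrg-5, hrg-6, R186.1, Y40D12A.2, Y37A1B.5, rhy-1, mxl-3, lbp-3, lbp-5, lbp-7, pck-2, pyc-1, R07E5.13, F54D5.12, ech-6, alh-8, metr-1, cbs-1, cth-2, cpr-1, cpr-6, cpl-1, clec-50, pud-1.1, F55G11.8, hpo-6, lin-32, mls-2, ref-2, alr-1, H20E11.3, gst-17, gst-18, pcca-1, pccb-1, 4 arginine kinase genes, F58G6.9 and F58G6.3. Alternatives changed the pseudocount, filter, scaling, variance model, design and libraries used.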

Additional observations from a re-analysis of the deposited data

Results flagged for a closer look

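Genes listed at 0 in any library lay outside the fit, and 9 of them were above 0 in all 4 hns libraries and at 0 in all 4 BW25113 libraries, while 0 showed the opposite. K01A12.2 was the 1 that reached 1 FPKM, at 1.498 and 1.61 FPKM in daf-16 and 1.64 and 0.808 FPKM in wild type on hns food. The other 8 stayed below 0.7 FPKM in every library. No fold is given for any of the 9, since a listed 0 can be a failed estimate.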

How the results depend on the processing

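With the replicate number as a block, 747 genes passed, 539 higher and 208 lower. Among the genes named by rule or afterwards, the block moved 7 past the threshold and none below it. Without a filter on low values 111 passed (61 higher, 50 lower), and 31 passed for the difference between genotypes. Asking for 1 FPKM in 2 libraries gave 79 higher genes and 14 for that difference. Equal medians gave 142 lower genes, 4 group means gave 407 genes (323 higher), and leaving genotype out of the fit gave 124 (69 higher). The libraries of wild type alone gave 43 (27 higher, 16 lower) and those of daf-16 alone 42 (20 higher, 22 lower). Leaving out 1 library at a time gave 94 to 399 genes, 50 to 293 higher and 44 to 106 lower, and 0 to 1 for the difference between genotypes. Coding genes with a transcript of at least 300 nt, a setting chosen after seeing the data, gave 257. The cause of these shifts was not tested. No named gene that passed changed sign under these settings. Depth is known only as implied fragments, and the 2 libraries of a group limit the precision of every value.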
